A study of Mus musculus with 18 samples.

Results

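The kidneys of *Lin28A* OE mice after 2 weeks of doxycycline (Dox) were compared with those after 1 week, to describe how the injured kidney moved between the first and the second week of transgene induction. The comparison used 6 of the 18 libraries of the series, 3 for each week, and the 16984 of 49585 gene rows whose mean normalized value over the 18 libraries was above 10. The genotype label of every mouse, of controls too, holds Lox-stop-Lox-TetOn-*Lin28A*, for a strain that the study's methods name TRE-*Lin28A*;Lox-stop-Lox-TetOn-rtTA, although the titles call the controls WT. All mice drank Dox at 1 g/L, and Six2Cre stands in the labels of the OE mice alone. The control kidneys of the same 2 time points, 3 libraries each, gave the background of time and Dox without Cre. Six2Cre removes the stop cassette in the nephron progenitors, so the transgene can be induced in podocytes and tubules derived from them, while the collecting duct, vessels, stroma and immune cells come from other lineages. Neither the sex nor the age of the mice is stated in the labels. The labels do not say whether the 3 libraries of a group came from 3 animals, so the p-values measure the spread between libraries. That spread is pooled over all 18 libraries in 6 groups, not only the 6 OE libraries compared. An SE can therefore be wider or narrower than the spread of the compared libraries.

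LIN28A is an RNA-binding protein of embryonic cells that blocks the maturation of the let-7 microRNAs and is silent in the adult nephron. A nephron filters plasma at the glomerulus, reclaims most solutes in the proximal tubule, dilutes the filtrate in the thick ascending limb, and adjusts salt, calcium and acid in the distal and collecting segments. Injured tubule cells are known to lose their transporters, switch on secreted injury proteins and answer to interferon and NF-kB signals.

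Depth was even, with 21176911 to 26578917 reads assigned to genes in the OE libraries of the 2 time points. Reads were scaled by the size factor of their library and are called normalized reads below, and each fold change is on the log2(value + 1) scale, which understates the change of genes with few reads. Kidney markers were present in all 12 libraries of the 4 groups, at no less than 15320 normalized reads for *Umod* of the thick ascending limb and 12324 for *Aqp2* of the collecting duct. Sex markers differed within groups. *Xist*, the RNA that silences one X chromosome in females, stood above 100 normalized reads in OE replicate 1 at 1 week and in OE replicates 2 and 3 at 2 weeks, and *Ddx3y*, on the Y chromosome, exceeded 100 in the other OE libraries. The sex balance therefore moved with the week, and the change within each kind of library is given below for some genes. Below 100 for *Ddx3y*, such a change rests at 1 week on OE replicate 1 alone. Above 100, it rests at 2 weeks on OE replicate 1 alone, so a gap between the 2 values can be that of a library. *Lin28a* (chromosome 4, 134003330 to 134018841 of GRCm38, as for all coordinates of genes here) measured 41737, 68744 and 56496 normalized reads at 1 week and 116461, 71764 and 52622 at 2 weeks, ranges that overlap (log2 fold change 0.48, SE 0.29, limma adjusted p = 0.232). *Six2*, the gene whose promoter drives the Cre, measured 4828, 6607 and 5936 normalized reads at 1 week and 17735, 10124 and 10177 at 2 weeks in OE kidneys and at most 4.37 in any control of these weeks. Its OE libraries did not overlap between the weeks, but the difference did not pass (log2 fold change 1.09, SE 0.58, limma adjusted p = 0.171).

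Between the weeks 720 genes were higher and 1184 lower by the DEG criteria, a log2 fold change above 1 or below -1 with an adjusted p under 0.05 (limma, Benjamini-Hochberg over all genes tested). These were 4.24% and 6.97% of the genes tested. The median log2 fold change was 1.45 among the higher DEGs and -1.53 among the lower, and 144 rose and 297 fell by more than 2 on the log2 scale. The 3 libraries of each week did not overlap for 3415 genes that were higher at 2 weeks (20.1% of all tested) and 3889 that were lower (22.9%), and for 702 and 1144 of the DEGs. With the *Xist* level as a covariate 598 of the higher and 1050 of the lower DEGs still met the criteria. Without OE replicate 1 at 1 week, the only library of that group with *Xist*, the higher DEGs numbered 423 and the lower 876.

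In control kidneys 3 genes passed the same criteria between 2 weeks and 1 week with limma (19 with DESeq2, 1 with edgeR), and 1175 had an unadjusted p under 0.05. The median control change was 0.15 on the log2 scale over the genes that were higher DEGs in OE kidneys and -0.02 over the lower ones. The test of the difference between the OE change and the control change passed in 385 genes with the more positive change in OE (2.27%) and in 1155 with the more negative change (6.8%), among them 199 of the higher and 651 of the lower DEGs. That total of 1540 was 767 without OE replicate 1 and 1023 without OE replicate 2 at 1 week. It was 989 without control replicate 2 at 1 week, and 934 and 984 without control replicates 2 and 3 at 2 weeks.

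Gene lists are described below by the members with an adjusted p under 0.05, a rule that 12% of all genes tested met as higher and 16.2% as lower at 2 weeks. These totals, 2040 and 2758, were 985 and 1753 without OE replicate 1 at 1 week. The median log2 fold change of all genes tested was -0.01 in OE and 0.01 in control kidneys. A member called by this rule need not have passed the test of the difference from the control change. That test passed in 2.27% of all genes tested with the more positive and 6.8% with the more negative change in OE.

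**Figure D1:**
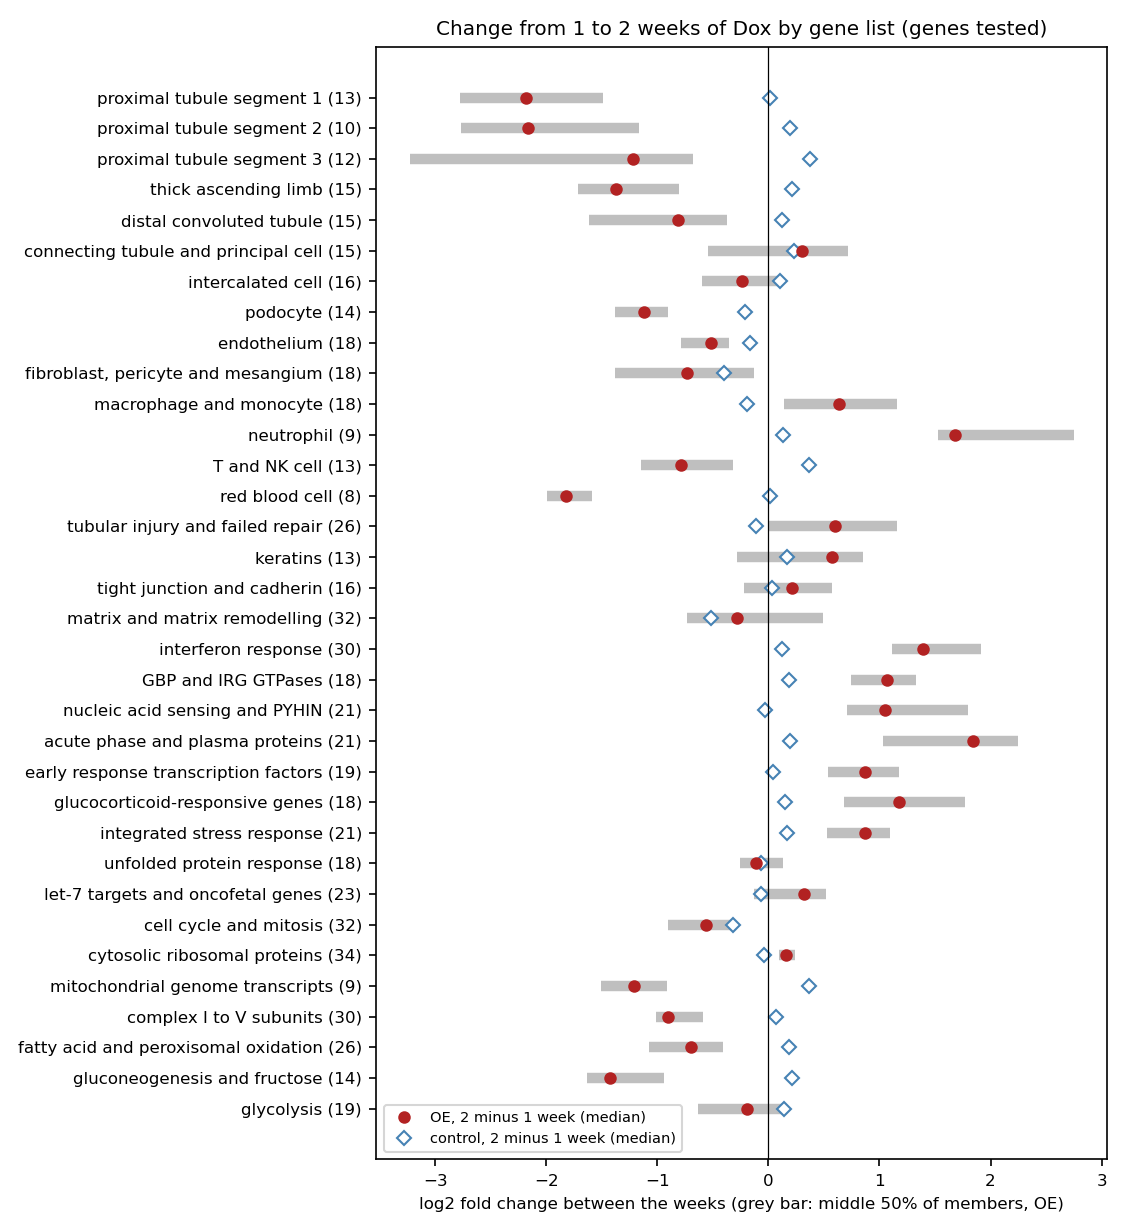
Change from 1 to 2 weeks of Dox for 34 gene lists, as log2 fold change on the x axis, with the number of members tested in parentheses. Red points are the median of the members in OE kidneys, grey bars the middle 50% of the members, and open diamonds the median in control kidneys. Nephron lists other than connecting tubule and principal cell, and mitochondrial lists, lie to the left of 0 in OE kidneys, as for proximal tubule segment 1 at -2.18, and interferon, acute phase and neutrophil lists to the right, with control medians between -0.52 and 0.38.

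Interferon-stimulated genes rose, with the largest changes of the list in *Mx1* and *Mx2*, dynamin-like GTPases that block viruses. Of 30 listed members, all above the low-value filter, 28 rose, with a median log2 fold change of 1.39 against 0.12 in controls, and 11 passed the test of the difference from controls. *Rsad2*, which encodes the antiviral enzyme viperin (chromosome 12, 26442746 to 26456452), measured 12676, 24908 and 9521 normalized reads at 1 week and 112905, 61799 and 63078 at 2 weeks. The weeks did not overlap (log2 fold change 2.40, SE 0.34, limma adjusted p = 1.88e-04), while controls had means of 2879 at 1 week and 1972 at 2 weeks. *Mx2* measured 579, 938 and 574 normalized reads at 1 week and 7546, 5317 and 3354 at 2 weeks, again without overlap (log2 fold change 2.92, SE 0.39, limma adjusted p = 1.31e-04). *Mx1* had a log2 fold change of 2.92 (limma adjusted p = 0.00306) and *Oas1g*, an enzyme of the oligoadenylate synthetase family, of 2.32 (limma adjusted p = 0.00112).

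RefSeq promoters (250 bases before to 50 after the start, GRCm38.p6) could be matched for 11921 of the 16984 genes, and the interferon-stimulated response element, spelled GAAANNGAA and searched on both strands, was present in 9.1% of them. It was present in 17.7% of the higher DEGs with a promoter and in 9.84% of the lower. Among the lists it stood in 14 of 23 interferon response promoters, 10 of 11 of the GBP and IRG GTPases and 11 of 16 of the nucleic acid sensors. Of the lists that fell it stood in 4 of 21 promoters of respiratory complex subunits, 2 of 28 of mitochondrial translation, import and folding and 2 of 26 of the proximal tubule segments. Of the members whose matched promoter holds the element, the 3 with the largest rise are shown, each on its gene's own strand, which is the minus strand for all of them, with the matches in capitals. *Rsad2* is chr12:26456403-26456702, with 1 match beginning 119 bases before the start. *Oas1g* is chr5:120887564-120887863 and *Oas3* is chr5:120777610-120777909, each with 2 overlapping matches written as one run of capitals, the first beginning 18 and 75 bases before the start.
Rsad2: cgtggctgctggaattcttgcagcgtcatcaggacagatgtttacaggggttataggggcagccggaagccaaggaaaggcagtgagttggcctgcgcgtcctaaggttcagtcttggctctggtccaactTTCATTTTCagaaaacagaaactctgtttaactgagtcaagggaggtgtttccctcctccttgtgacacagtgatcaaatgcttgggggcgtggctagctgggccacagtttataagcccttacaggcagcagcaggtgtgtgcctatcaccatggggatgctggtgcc
Oas1g: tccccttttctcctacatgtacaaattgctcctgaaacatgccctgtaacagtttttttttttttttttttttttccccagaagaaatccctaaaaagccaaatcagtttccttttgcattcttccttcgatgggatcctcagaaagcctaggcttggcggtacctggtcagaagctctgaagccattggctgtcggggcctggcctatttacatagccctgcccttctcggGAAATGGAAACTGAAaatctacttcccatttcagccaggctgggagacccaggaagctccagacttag
Oas3: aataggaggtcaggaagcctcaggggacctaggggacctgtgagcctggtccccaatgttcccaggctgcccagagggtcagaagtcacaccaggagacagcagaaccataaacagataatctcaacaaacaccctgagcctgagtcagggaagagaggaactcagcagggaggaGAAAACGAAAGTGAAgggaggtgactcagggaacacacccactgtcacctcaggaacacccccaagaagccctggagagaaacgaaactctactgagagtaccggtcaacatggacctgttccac
Other elements searched on both strands included GGGANTTTC (NF-kB) in 2.63% of higher DEG promoters against 1.23% of all, and TGACTCA (AP-1) in 9.63% against 5.01%. For GCATGCGC (NRF1) the shares were 1.75% of higher DEGs, 2.83% of lower DEGs and 5.27% of all genes. A match describes these letters only and is not evidence of binding.

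The guanylate-binding proteins and immunity-related GTPases, which attack membranes of intracellular microbes, rose in 11 of 18 members, or 7 without OE replicate 1 at 1 week (median 1.07 on the log2 scale, controls 0.18). In 3 of the 18 the change differed from that of controls. *Gbp9* measured 923, 1375 and 979 normalized reads at 1 week and 3288, 2746 and 3214 at 2 weeks with no overlap (log2 fold change 1.51, SE 0.18, limma adjusted p = 6.98e-05). The 1 member that fell, *Gbp6*, had the largest change of the list and measured 197, 463 and 152 normalized reads at 1 week and 20.4, 52.5 and 36.4 at 2 weeks (log2 fold change -2.78, SE 0.61, limma adjusted p = 0.00329). Of 21 tested genes of nucleic acid sensing, in the cytosol or by Toll-like receptors of the endosome, 14 rose, including several of the PYHIN family, which bind DNA. *Ifi207* measured 219.9, 275 and 221 normalized reads at 1 week and 1060.0, 856 and 1051 at 2 weeks (log2 fold change 2.05, SE 0.31, limma adjusted p = 2.64e-04), and *Ifi209* rose from 103 to 589 (log2 fold change 2.57, limma adjusted p = 0.00202). *Ifi213* measured 49, 5.72 and 0 normalized reads at 1 week and 279.9, 329 and 254 at 2 weeks, with values at 1 week from 0 upwards and no overlap (log2 fold change 5.37, SE 1.15, limma adjusted p = 0.00287), and the controls were 37.9, 29.5 and 18.1 at 1 week and 1.29, 62.2 and 35.3 at 2 weeks. Members of the PYHIN and guanylate-binding families, of the *Oas1* and *Serpinb9* clusters and of other recent duplications share sequence, so reads can be split between copies.

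Acute phase and plasma protein genes, mostly known as secreted products of the liver, were among the lists with the largest rise. They rose in 12 of 21 members tested of 24 listed (median 1.84, controls 0.20), and 5 of the 21 passed the test of the difference from controls. *Serpina3n*, an inhibitor of serine proteases (chromosome 12, 104406729 to 104414329), measured 244, 464 and 673 normalized reads at 1 week and 2275, 6574 and 3389 at 2 weeks. Its lowest library at 2 weeks lay above the highest at 1 week (log2 fold change 3.12, SE 0.65, limma adjusted p = 0.00231). *Lrg1*, a leucine-rich plasma glycoprotein, measured 122, 212 and 281 normalized reads at 1 week and 1342, 905 and 902 at 2 weeks (log2 fold change 2.41, SE 0.44, limma adjusted p = 0.00101). *Saa1*, serum amyloid A, measured 11.8 ± 8.85 (SD, n = 3) and 86.7 ± 41.8 (SD, n = 3) in OE kidneys (log2 fold change 2.85, limma adjusted p = 0.00161) and had no read in the 6 control libraries. The fibrinogen chains *Fga* and *Fgb* rose by 2.08 and 1.52 on the log2 scale (limma adjusted p = 0.00735 and 0.0182), with the call of *Fga* lost without OE replicate 1 at 1 week and that of *Fgb* lost without any one of OE replicate 1 at 1 week and replicate 2 at 2 weeks.

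Among complement and coagulation genes the largest rise was that of *C3*. *C3*, the protein on which the complement pathways meet (chromosome 17, 57203970 to 57228136), measured 2273, 4260.3 and 5023 normalized reads at 1 week and 17272, 16359 and 18969 at 2 weeks, with no overlap (log2 fold change 2.26, SE 0.45, limma adjusted p = 0.00185). *C1ra* and *C1s1*, proteases of the first complement component, measured 448 ± 105 at 1 week and 454 ± 64.5 at 2 weeks (SD, n = 3 each) and 569 ± 119.6 at 1 week and 587 ± 183 at 2 weeks (SD, n = 3 each), and neither passed (log2 fold changes 0.04 and 0.02, limma adjusted p = 0.915 and 0.965). In the whole list of 26 tested members of 27 listed 6 rose (23.1%) and 2 fell (7.69%), against 12% and 16.2% of all genes tested. The number that rose was 3 without OE replicate 1 or 2 at 1 week and 2 without OE replicate 1 at 2 weeks. The fallen pair were *Proc*, protein C (log2 fold change -1.32, limma adjusted p = 0.00631), and *Thbd*, thrombomodulin of the endothelium (log2 fold change -0.78, limma adjusted p = 0.00647), both anticoagulants.

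Leukocyte markers differed by cell type. Neutrophil genes rose in 5 of 9 members tested of 13 listed (median 1.68), and their summed level ranged over 508 to 815 normalized reads at 1 week and 1922 to 3000.4 at 2 weeks. *Il1r2*, a decoy receptor for interleukin 1, measured 28.5, 20 and 55.8 normalized reads at 1 week and 409, 430.1 and 265 at 2 weeks (log2 fold change 3.46, SE 0.45, limma adjusted p = 1.04e-04). *Retnlg*, a granulocyte resistin-like protein, measured 10.3, 13.4 and 12.9 normalized reads at 1 week and 189, 269.8 and 67.2 at 2 weeks (log2 fold change 3.54, SE 0.56, limma adjusted p = 3.72e-04). The granule proteins *S100a8* and *S100a9* measured 158 ± 41.5 at 1 week and 483 ± 201 at 2 weeks (SD, n = 3 each) and 186 ± 50.6 at 1 week and 547 ± 194 at 2 weeks (SD, n = 3 each), and did not pass with limma (adjusted p = 0.0656 and 0.0548). *Chil3*, a chitinase-like protein of myeloid cells, measured 50.1, 83 and 114 normalized reads at 1 week and 4539, 1353 and 948 at 2 weeks (log2 fold change 4.51, SE 0.68, limma adjusted p = 2.64e-04).

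Macrophage and monocyte genes rose in 6 of 18 (median 0.64), or 3 without OE replicate 1 at 2 weeks, and their summed level ranged over 22283 to 25677 normalized reads at 1 week and 25276 to 53964 at 2 weeks. The test of the difference from controls passed in 1 of the 18. *Cd68*, a lysosomal protein, measured 593, 588 and 612 normalized reads at 1 week and 1522, 1128 and 1217 at 2 weeks (log2 fold change 1.10, SE 0.19, limma adjusted p = 5.72e-04), while *Adgre1*, the F4/80 antigen, measured 738, 682 and 684 normalized reads at 1 week and 725, 439 and 729 at 2 weeks, with overlapping weeks (log2 fold change -0.19, SE 0.35, limma adjusted p = 0.72). T and NK cell genes stayed few, at 452 to 1157 normalized reads at 1 week and 382 to 814 at 2 weeks summed over the list. *Cd3e* did not pass (log2 fold change -1.14, limma adjusted p = 0.226), and 1 of 13 tested members of 18 listed, *Trac*, fell with overlapping libraries (log2 fold change -1.51, limma adjusted p = 0.0272), a call lost without any one of OE replicates 2 and 3 at 1 week and replicates 1 and 2 at 2 weeks. Of B and plasma cell genes 1 of 8 tested of 12 listed fell (12.5%, median -0.41), and 4 of the 8 had a log2 fold change above 0. That member, *Ighm*, the immunoglobulin M heavy chain, measured 349.9, 443 and 253 normalized reads at 1 week and 26.7, 29.4 and 162 at 2 weeks (log2 fold change -2.72, SE 0.61, limma adjusted p = 0.00383). Of 11 tested genes, of 13 listed, of MHC class II presentation 1 rose, the lysosomal protease *Ctss* (log2 fold change 1.59, limma adjusted p = 0.00201), whereas *H2-Aa* did not pass (log2 fold change 0.14, limma adjusted p = 0.83). In whole-kidney RNA more cells of a type and more RNA per cell cannot be told apart. The part of the myeloid cells in the interferon, acute phase and NF-kB values was not tested.

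NF-kB pathway genes rose in 9 of 19 (median 0.52, controls -0.01), and 5 of the 19 passed the test of the difference from controls. Those that rose included inhibitors and feedback genes and the subunits *Rela* (log2 fold change 0.75, limma adjusted p = 3.04e-04) and *Relb* (log2 fold change 0.99, limma adjusted p = 5.07e-04), of which *Rela* is named after its values were seen. *Nfkbia*, the inhibitor IkB alpha, measured 3121, 5128 and 3849.9 normalized reads at 1 week and 12139, 10575 and 7749 at 2 weeks (log2 fold change 1.34, SE 0.22, limma adjusted p = 4.37e-04), and *Tnfaip3*, the A20 ubiquitin-editing enzyme, measured 1170.4, 1617 and 1256 normalized reads at 1 week and 3039, 4489 and 3125 at 2 weeks (log2 fold change 1.39, SE 0.18, limma adjusted p = 8.84e-05). The precursor subunits *Nfkb1* and *Nfkb2* did not pass, with log2 fold changes of 0.11 and 0.15 (limma adjusted p = 0.367 and 0.403). In a list of chemokines, growth factors and their signalling 5 of 12 genes tested of 16 listed rose, a count of 2 or 3 without any of 4 of the 6 OE libraries (replicates 1 and 3 of either week). Of the 12, 0 differed from the control change by limma, 1 by edgeR and 2 by DESeq2. *Cxcl2*, a neutrophil attractant, rose by 2.01 on the log2 scale (limma adjusted p = 0.0143), lost without OE replicate 2 at 2 weeks. The others were *Cxcl5*, also an attractant (log2 fold change 2.08, limma adjusted p = 0.0456), *Socs3*, an inhibitor of cytokine signalling (log2 fold change 0.92, limma adjusted p = 0.0283), *Il34*, a macrophage growth factor (log2 fold change 1.02, limma adjusted p = 0.0058), and *Osmr*, the oncostatin M receptor (log2 fold change 0.50, limma adjusted p = 0.0414). Leaving out 1 OE library at a time, the limma adjusted p ranged from 0.0447 to 0.14 for *Cxcl5*, from 0.0266 to 0.116 for *Socs3* and from 0.0552 to 0.143 for *Osmr*, past 0.05 without any one of 5, 4 and 6 of the 6 libraries, and *Il34* stayed below 0.05 throughout. The colony-stimulating factors *Csf1* (log2 fold change 0.44, limma adjusted p = 0.164) and *Csf3* (log2 fold change 0.71, limma adjusted p = 0.438) did not pass, and these and *Osmr* are named after their values were seen. *Cxcl1*, another neutrophil attractant, measured 5049.6, 5451 and 3810.4 normalized reads at 1 week and 9006, 10445 and 7614 at 2 weeks and did not pass although the weeks did not overlap (log2 fold change 0.92, SE 0.68, limma adjusted p = 0.324). That SE is pooled over the 6 groups of the fit and is not the spread of these 6 OE libraries alone. Of the genes of inflammasomes, pyroptosis and necroptosis 6 of 18 tested of 19 listed rose, among them *Mlkl*, the pore-forming effector of necroptosis (log2 fold change 1.5, limma adjusted p = 3.91e-04), *Casp4*, the mouse caspase 11 (log2 fold change 1.35, limma adjusted p = 0.00352), and *Gsdma* (log2 fold change 2.25, limma adjusted p = 0.00238). *Nlrp3* did not pass (log2 fold change 1.28, limma adjusted p = 0.115).

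Proximal tubule genes fell further from levels that were already below control at 1 week. Of the 3 lists for its segments, all of whose members passed the low-value filter, 12 of 13 fell for segment 1, 8 of 10 for segment 2 and 8 of 12 for segment 3. The medians were -2.18, -2.16 and -1.22 on the log2 scale, against 0.02, 0.20 and 0.38 in controls, and 9, 7 and 6 members passed the test of the difference from the control change. For segment 1 the median log2 difference between OE and control kidneys was -1.35 at 1 week and -3.41 at 2 weeks, a pair of comparisons in which the OE libraries are those compared here.

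The receptors that take up filtered protein fell. *Lrp2*, which encodes the receptor megalin (chromosome 2, 69424340 to 69586065), measured 28491, 17288 and 13072 normalized reads at 1 week and 1474, 2800.3 and 2647 at 2 weeks, against 64977 at 1 week and 53458 at 2 weeks as control means. The lowest library at 1 week was well above the highest at 2 weeks (log2 fold change -3.07, SE 0.33, limma adjusted p = 3.89e-05), and the log2 change was -3.39 among libraries with *Ddx3y* below 100 and -3.35 among those above. *Cubn*, the partner receptor cubilin, measured 5462, 4561 and 3529 normalized reads at 1 week and 521, 1377 and 1307 at 2 weeks (log2 fold change -2.18, SE 0.31, limma adjusted p = 1.69e-04). Endocytosis and brush border genes fell in 19 of 22 (median -1.21), among them *Pdzk1*, a scaffold of the brush border (log2 fold change -2.57, limma adjusted p = 1.75e-04), and *Mep1b*, a meprin metalloprotease subunit (log2 fold change -4.29, limma adjusted p = 1.45e-04).

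Solute carriers fell across substrates. *Slc34a3*, a phosphate cotransporter, measured 1458, 1012 and 647 normalized reads at 1 week and 24, 34.7 and 68 at 2 weeks (log2 fold change -4.64, SE 0.46, limma adjusted p = 2.52e-05), and *Slc34a1*, the main phosphate cotransporter of the segment, measured 38069, 29570.1 and 20360.4 normalized reads at 1 week and 1936, 5014 and 7374 at 2 weeks (log2 fold change -2.77, SE 0.42, limma adjusted p = 2.55e-04). Neither gene overlapped between the weeks. *Slc5a2*, the glucose cotransporter SGLT2, measured 4719, 4761 and 3282 normalized reads at 1 week and 517, 983 and 1067 at 2 weeks (log2 fold change -2.36, SE 0.28, limma adjusted p = 5.96e-05). Among genes for glucose, phosphate, sulfate and bicarbonate transport 17 of 23 fell (median -1.78), among organic ion transporters 15 of 23 (median -1.14) and among amino acid transporters 11 of 21 (median -1.14). Against these directions *Slco2a1*, a prostaglandin carrier, rose (log2 fold change 1.33, limma adjusted p = 1.08e-04), as did both chains of the LAT1 exchanger, *Slc7a5* (log2 fold change 1.19, limma adjusted p = 0.00281) and *Slc3a2* (log2 fold change 0.56, limma adjusted p = 0.0216), the latter lost without any one of OE replicate 3 at 1 week and replicates 1 and 2 at 2 weeks.

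Fewer of the transcription factors of the proximal tubule passed. 4 of 13 fell (median -0.46). *Hnf4a*, a nuclear receptor required for proximal tubule maturation, measured 8319, 9641 and 6972 normalized reads at 1 week and 1992, 5157 and 3341 at 2 weeks (log2 fold change -1.34, SE 0.29, limma adjusted p = 0.00301), and *Esrrg*, an orphan receptor of mitochondrial genes, measured 1788, 1321 and 1413 normalized reads at 1 week and 479, 749 and 859 at 2 weeks (log2 fold change -1.14, SE 0.21, limma adjusted p = 9.59e-04).

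For the thick ascending limb the median log2 difference between OE and control was -0.55 at 1 week and -1.82 at 2 weeks. Its genes fell in 12 of 15 between the weeks (median -1.37, controls 0.21). *Slc12a1*, the sodium-potassium-chloride cotransporter NKCC2 (chromosome 2, 125152505 to 125230002), measured 45607, 48883 and 40973 normalized reads at 1 week and 3908, 12132 and 21661 at 2 weeks. The weeks did not overlap, with the lowest value in OE replicate 1 at 2 weeks (log2 fold change -2.16, SE 0.41, limma adjusted p = 0.00137). *Umod*, which encodes uromodulin, the most abundant protein of normal urine, measured 52288, 54761 and 48498 normalized reads at 1 week and 15320.0, 32550.0 and 34499 at 2 weeks (log2 fold change -1.0, SE 0.29, limma adjusted p = 0.0174), a call lost without any one of OE replicate 1 at 1 week and replicate 1 at 2 weeks. *Egf*, the growth factor made by these and distal cells, measured 14541, 20806 and 9312 normalized reads at 1 week and 694, 2208 and 4165 at 2 weeks (log2 fold change -2.93, SE 0.54, limma adjusted p = 0.00114).

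In the distal convoluted tubule 9 of 15 genes fell (median -0.81), and 8 differed from the control change. *Pvalb*, the calcium buffer parvalbumin of the early segment (chromosome 15, 78191114 to 78206400), had the most negative log2 fold change of all genes tested. It measured 487, 156 and 236 normalized reads at 1 week and 3.55, 3.56 and 4.05 at 2 weeks, against control means of 1608 at 1 week and 1209 at 2 weeks (log2 fold change -5.80, SE 0.72, limma adjusted p = 7.86e-05). *Slc12a3*, the thiazide-sensitive sodium chloride cotransporter, measured 10472, 11677 and 8117 normalized reads at 1 week and 1630.4, 3706 and 4501 at 2 weeks (log2 fold change -1.73, SE 0.28, limma adjusted p = 3.90e-04). *Kl*, the FGF23 co-receptor klotho, measured 12556, 6613 and 5926 normalized reads at 1 week and 899, 1076 and 2128 at 2 weeks (log2 fold change -2.63, SE 0.32, limma adjusted p = 7.22e-05). None of these 3 genes overlapped between the weeks.

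Connecting tubule and principal cell genes split. Of 15 tested of 16 listed 5 rose and 4 fell (median 0.30, controls 0.23), and 2 or 3 rose without any one OE library. Of the 4 that fell 3 handle calcium. *Calb1*, the calcium buffer calbindin, measured 16284, 7805 and 9006 normalized reads at 1 week and 2934, 2232 and 4267 at 2 weeks (log2 fold change -1.79, SE 0.26, limma adjusted p = 2.28e-04), and the exchanger *Slc8a1* (log2 fold change -1.64, limma adjusted p = 8.81e-04) and the channel *Trpv5* (log2 fold change -1.07, limma adjusted p = 6.60e-04) fell with it. The members that rose included *Scnn1a* and *Scnn1b*, subunits of the epithelial sodium channel (log2 fold changes 0.79 and 0.74, limma adjusted p = 0.0185 and 0.00647). *Scnn1g*, another subunit of that channel, did not pass (log2 fold change 0.28, limma adjusted p = 0.451). These subunits are named after their values were seen. *Aqp2*, the vasopressin-regulated water channel, measured 21612, 21823 and 22738 normalized reads at 1 week and 44643, 32932 and 24182 at 2 weeks, and did not pass although its weeks did not overlap (log2 fold change 0.58, SE 0.41, limma adjusted p = 0.313). Among intercalated cell genes 6 of 16 fell (median -0.24), and 9 passed in neither direction. *Slc26a4*, the chloride-bicarbonate exchanger pendrin, measured 1281, 917 and 986 normalized reads at 1 week and 275, 282 and 426 at 2 weeks (log2 fold change -1.71, SE 0.19, limma adjusted p = 3.93e-05). *Slc4a1*, the anion exchanger of acid-secreting cells, fell too (log2 fold change -1.83, limma adjusted p = 0.00109). It is also a member of the red blood cell list, so its fall cannot be placed in a single cell type. Against these falls *Atp6v0d2*, a subunit of the proton pump, rose (log2 fold change 0.91, limma adjusted p = 0.00693).

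Podocyte genes stood near the control level at 1 week and fell by 2 weeks. 11 of 14 fell (median -1.12, controls -0.21), and the median log2 difference between OE and control was -0.14 at 1 week and -0.93 at 2 weeks. *Nphs1*, nephrin of the slit diaphragm (chromosome 7, 30458315 to 30487223), measured 354, 292 and 497 normalized reads at 1 week and 40, 110.4 and 161 at 2 weeks, against 526, 899 and 824 at 1 week and 762, 780.0 and 492 at 2 weeks in controls. The OE weeks did not overlap, with the lowest value in OE replicate 1 at 2 weeks (log2 fold change -2.04, SE 0.37, limma adjusted p = 0.00103). The log2 change was -1.40 among libraries with *Ddx3y* below 100 and -3.22 among those above, where OE replicate 1 is the only library at 2 weeks. Unlike the median of the list, *Nphs1* already lay below the range of the controls at 1 week in all 3 OE libraries. *Podxl*, the sialomucin of the foot processes, measured 6997, 5571 and 8172 normalized reads at 1 week and 1862, 2637 and 3631 at 2 weeks (log2 fold change -1.39, SE 0.21, limma adjusted p = 2.94e-04). *Col4a3*, a chain of the glomerular basement membrane, fell by 1.46 on the log2 scale (limma adjusted p = 0.00867). The difference from the control change passed in 4 of the 14 genes.

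**Figure D2:**
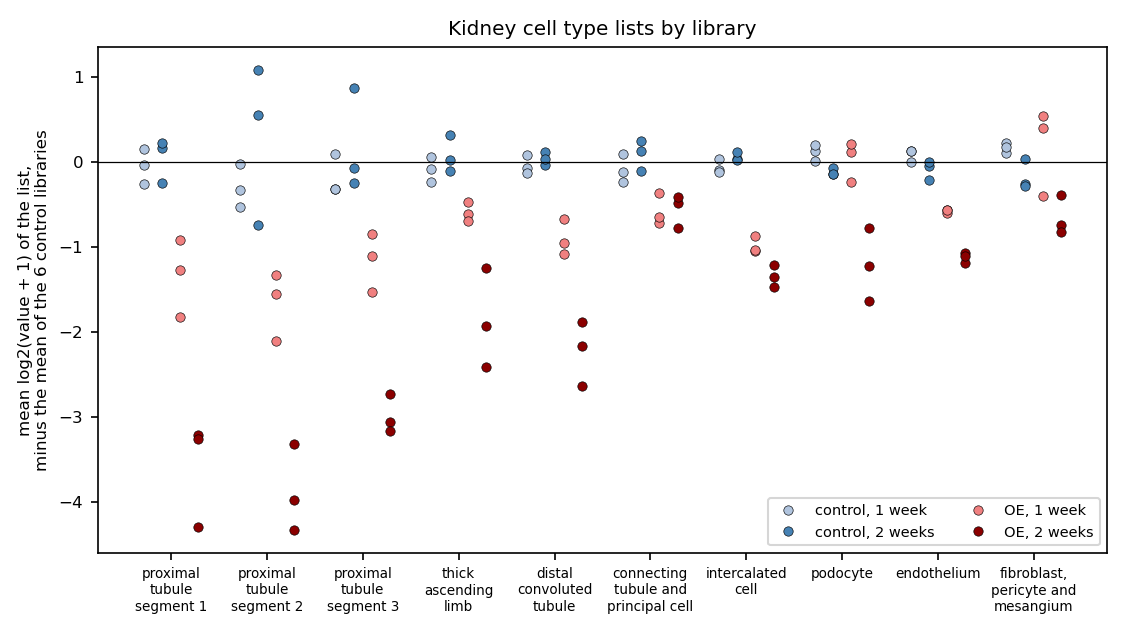
Mean log2(value + 1) of the members of 10 cell type lists in each library, minus the mean of the 6 control libraries of 1 and 2 weeks (y axis). Light and dark red points are the 3 OE libraries at 1 and 2 weeks, light and dark blue the 3 controls of each week. Proximal tubule segment 1 ranged over -1.82 to -0.92 at 1 week and -4.30 to -3.21 at 2 weeks in OE kidneys and podocytes over -0.23 to 0.21 at 1 week and -1.63 to -0.77 at 2 weeks, without overlap, whereas connecting tubule and principal cells ranged over -0.71 to -0.37 at 1 week and -0.78 to -0.41 at 2 weeks, with overlap.

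Outside the nephron, endothelial genes fell in 10 of 18 (median -0.52, controls -0.17). *Tek*, the angiopoietin receptor TIE2, measured 1757, 1688 and 1740.0 normalized reads at 1 week and 891, 739.9 and 678 at 2 weeks, a narrow spread in each week (log2 fold change -1.18, SE 0.11, limma adjusted p = 1.96e-05), and *Pecam1* measured 2278, 2079 and 2244 normalized reads at 1 week and 1443, 2114 and 1738 at 2 weeks, with overlap (log2 fold change -0.33, SE 0.13, limma adjusted p = 0.0575). Fibroblast, pericyte and mesangial genes fell in 9 of 18 (median -0.73, controls -0.40), or 5 without OE replicate 3 at 1 week. In the test of the difference from controls 0 of the 18 passed by limma, edgeR or DESeq2, and 4 had an unadjusted limma p under 0.05. *Col3a1*, a fibrillar collagen chain, measured 21053, 8383 and 16627 normalized reads at 1 week and 4442, 2853 and 6455 at 2 weeks (log2 fold change -1.72, SE 0.39, limma adjusted p = 0.0045), and its controls also went from 9906 to 5869 (log2 fold change -0.75, limma adjusted p = 0.742). *Itga8*, an integrin of mesangial cells, measured 963, 564 and 672 normalized reads at 1 week and 119.9, 170.1 and 255 at 2 weeks (log2 fold change -2.04, SE 0.30, limma adjusted p = 2.42e-04). *Pdgfra* and *Pdgfrb*, receptors that mark fibroblasts and pericytes, did not pass (log2 fold changes -0.13 and -0.16, limma adjusted p = 0.776 and 0.581). Red blood cell genes fell in 6 of 8 (median -1.83), or 3 without OE replicate 1 at 1 week, with a summed level of 9778 to 23769 normalized reads at 1 week and 3181 to 8110.0 at 2 weeks. The members that fell include *Slc4a1*, which is also in the intercalated cell list. Blood left in the tissue and erythroid RNA per cell cannot be told apart here.

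Tubular injury genes did not move as one. *Lcn2*, which encodes the secreted siderophore carrier NGAL (chromosome 2, 32384633 to 32388252), measured 3377, 3038 and 5012 normalized reads at 1 week and 47415, 30930.4 and 30341 at 2 weeks (log2 fold change 3.25, SE 0.47, limma adjusted p = 1.98e-04). *Havcr1*, the phosphatidylserine receptor KIM1 of injured proximal tubules (chromosome 11, 46735080 to 46779578), measured 2244, 4608 and 4569 normalized reads at 1 week and 6407, 2755 and 2381 at 2 weeks, with overlapping weeks (log2 fold change -0.06, SE 1.0, limma adjusted p = 0.973). Its highest library was OE replicate 1 at 2 weeks, and the other libraries of that week lay within the range of 1 week. Over the list 11 of 26 rose and 3 fell (median 0.60, controls -0.11), and 7 rose without OE replicate 1 at 2 weeks, while 1 fell without OE replicate 1 at 1 week or replicate 2 at 2 weeks. *Krt20*, a keratin, measured 685, 1632 and 1794 normalized reads at 1 week and 4587, 4626 and 4673 at 2 weeks (log2 fold change 1.88, SE 0.41, limma adjusted p = 0.00356), and *Sox9*, a transcription factor of regenerating tubules, measured 85.5, 86.8 and 96.1 normalized reads at 1 week and 554, 194 and 288 at 2 weeks (log2 fold change 1.80, SE 0.35, limma adjusted p = 0.00164). *Itgb8* fell (log2 fold change -1.40, limma adjusted p = 0.00183), as did *Vcan* (log2 fold change -2.08, limma adjusted p = 0.0375), a call lost without any one of OE replicates 1 and 3 at 1 week and replicates 1, 2 and 3 at 2 weeks, and *Dcdc2a* (log2 fold change -0.66, limma adjusted p = 0.0162), lost without any one of OE replicate 1 at 1 week and replicate 2 at 2 weeks.

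The claudins *Cldn3* and *Cldn4* rose and *Cldn2* and *Cldn10* fell. *Cldn4*, a barrier claudin of distal and injured epithelium, measured 3788, 4061 and 6409.7 normalized reads at 1 week and 25525, 21133 and 13799.6 at 2 weeks (log2 fold change 2.08, SE 0.35, limma adjusted p = 5.38e-04). *Cldn3* measured 514, 576 and 825 normalized reads at 1 week and 4965, 3139.5 and 2592 at 2 weeks (log2 fold change 2.45, SE 0.32, limma adjusted p = 1.09e-04), and *Cldn7* rose by 1.19 on the log2 scale (limma adjusted p = 0.00274). *Cldn2*, the cation pore of the proximal tubule, measured 13135, 15067 and 11364 normalized reads at 1 week and 5405, 8338 and 6046 at 2 weeks (log2 fold change -1.01, SE 0.18, limma adjusted p = 8.95e-04), and *Cldn10*, a pore of the thick ascending limb, measured 3499, 3640.4 and 3276 normalized reads at 1 week and 474, 1139 and 1712 at 2 weeks (log2 fold change -1.83, SE 0.33, limma adjusted p = 8.92e-04). *Cdh16*, the kidney-specific cadherin, fell by 0.76 on the log2 scale (limma adjusted p = 0.00105). In the list 5 of 16 rose (3 without OE replicate 2 at 1 week) and 4 fell.

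Of 32 matrix genes tested of 33 listed 5 rose and 7 fell (median -0.29, controls -0.52), 15.6% and 21.9%, near the 12% and 16.2% of all genes tested. Without OE replicate 1 or 3 at 1 week, or replicate 2 at 2 weeks, the lower count was 2, and 3 members were higher when OE replicate 1 at 1 week or replicate 2 at 2 weeks was left out. *Mmp7*, the protease matrilysin (chromosome 9, 7692090 to 7699585), measured 0, 20 and 13.7 normalized reads at 1 week and 216, 168 and 136 at 2 weeks (log2 fold change 4.66, SE 0.89, limma adjusted p = 0.00135) and had no read in the 6 controls. *Mmp14*, a membrane-bound matrix protease, measured 1369.8, 1314 and 1536 normalized reads at 1 week and 2918, 2783 and 2469 at 2 weeks (log2 fold change 0.95, SE 0.14, limma adjusted p = 2.59e-04). *Col6a3* fell by 2.09 on the log2 scale (limma adjusted p = 0.00516), and *Fn1*, fibronectin, did not pass (log2 fold change -0.70, limma adjusted p = 0.161). The largest log2 fold change of all genes tested was that of *Sprr2f*, a small proline-rich protein of stratified epithelia (chromosome 3, 92365187 to 92366442). It measured 9.12, 12.4 and 17.2 normalized reads at 1 week and 2361, 667 and 259.9 at 2 weeks, with at most 4.37 in any control (log2 fold change 5.78, SE 0.87, limma adjusted p = 2.55e-04). The highest of its 2-week libraries was OE replicate 1. *Vgf*, a secreted neuropeptide precursor, measured 11.4, 17.2 and 34.3 normalized reads at 1 week and 551, 351 and 189 at 2 weeks (log2 fold change 4.06, SE 0.69, limma adjusted p = 5.64e-04), and *Serpinb9e*, an intracellular protease inhibitor, measured 17.1, 44.8 and 42.9 normalized reads at 1 week and 467, 485 and 338 at 2 weeks (log2 fold change 3.68, SE 0.47, limma adjusted p = 8.58e-05).

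**Figure D3:**
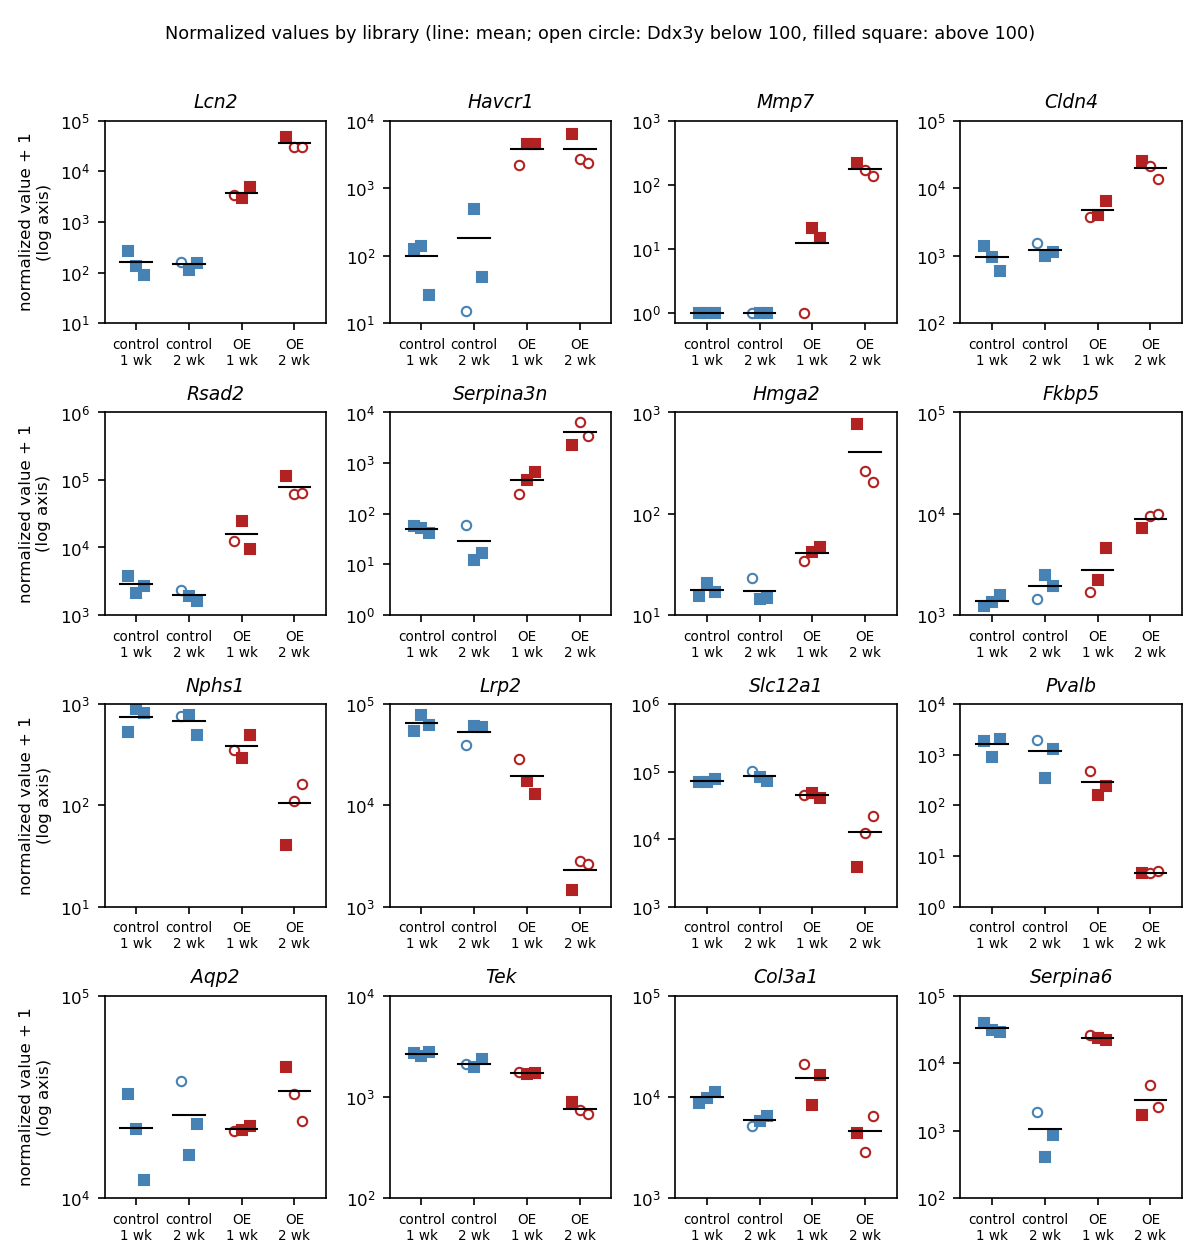
Normalized value + 1 on a log axis in each library of 16 genes, with controls in blue and OE in red, and a line at each group mean. Open circles are libraries with *Ddx3y* below 100 normalized reads and filled squares those above. *Nphs1* is lower at 2 weeks than at 1 week in all OE libraries, *Havcr1* overlaps between the OE weeks, and *Serpina6* falls in controls as well as in OE.

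Early response transcription factors rose in 10 of 19 tested of 20 listed (median 0.87), or 5 and 6 without OE replicates 1 and 2 at 1 week and 6 without OE replicate 1 at 2 weeks. *Klf6* measured 9019, 11552 and 9329 normalized reads at 1 week and 32816, 26043 and 21921 at 2 weeks (log2 fold change 1.42, SE 0.22, limma adjusted p = 3.05e-04) and *Junb*, an AP-1 subunit, measured 2621, 3295 and 3117 normalized reads at 1 week and 9344, 8606 and 6861 at 2 weeks (log2 fold change 1.45, SE 0.28, limma adjusted p = 0.00131). *Fos* and *Fosb*, other AP-1 subunits, did not pass (log2 fold changes 0.28 and 0.09, limma adjusted p = 0.678 and 0.928). Genes of the integrated stress response, in which the factor ATF4 is translated when translation in general is held back, rose in 10 of 21 tested of 22 listed (median 0.87), or 6 without OE replicate 1 at 2 weeks. Of the 21, 2 passed the test of the difference from controls. *Ddit3*, the factor CHOP, measured 1439, 1903 and 1427 normalized reads at 1 week and 6813, 3822 and 3715 at 2 weeks (log2 fold change 1.54, SE 0.21, limma adjusted p = 1.57e-04), and *Ppp1r15a*, the phosphatase subunit GADD34, measured 606, 743 and 906 normalized reads at 1 week and 2728, 2140.5 and 1541 at 2 weeks (log2 fold change 1.49, SE 0.24, limma adjusted p = 4.45e-04). The chaperones of the endoplasmic reticulum did not follow. *Hspa5*, the chaperone BiP, measured 17340.1, 16298 and 14689.8 normalized reads at 1 week and 18908, 15549.8 and 12408 at 2 weeks (log2 fold change -0.06, SE 0.21, limma adjusted p = 0.846), and 1 of 18 genes of the unfolded protein response rose while 3 fell, *Canx*, *Pdia4* and *Hsp90b1*. Of genes listed as Nrf2 targets 7 of 21 fell (3 without OE replicate 2 at 1 week or 3 at 2 weeks), and 13 passed in neither direction (median -0.22, controls 0.26). Those that fell included *Cat*, catalase (log2 fold change -1.27, limma adjusted p = 2.18e-04), and *Sod2*, the mitochondrial superoxide dismutase (log2 fold change -1.05, limma adjusted p = 4.73e-05). *Fth1* rose (log2 fold change 0.82, limma adjusted p = 0.00684), and *Hmox1* did not pass (log2 fold change 0.53, limma adjusted p = 0.537).

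Genes known to be induced by glucocorticoids rose in 11 of 18 tested of 19 listed (median 1.18, controls 0.15), or 7 without OE replicate 1 at 1 week or replicate 2 at 2 weeks. The difference from the control change passed in 2 of the 18. *Tsc22d3*, the leucine zipper protein GILZ, measured 2173, 3214 and 5148 normalized reads at 1 week and 8242, 10672 and 7889 at 2 weeks (log2 fold change 1.42, SE 0.31, limma adjusted p = 0.00309). *Fkbp5*, a chaperone of the glucocorticoid receptor (chromosome 17, 28399094 to 28517527), measured 1668, 2197 and 4533 normalized reads at 1 week and 7229, 9403 and 9884 at 2 weeks (log2 fold change 1.78, SE 0.45, limma adjusted p = 0.00896), a call lost without OE replicate 1 at 1 week. *Zbtb16* rose by 2.44 on the log2 scale (limma adjusted p = 0.0111), lost without any one of OE replicate 1 at 1 week and replicate 2 at 2 weeks, and the receptor gene itself, *Nr3c1*, fell by 0.51 (limma adjusted p = 0.0442), lost without any one of OE replicates 1 and 2 at 1 week and replicates 1 and 2 at 2 weeks. The metallothioneins *Mt1* and *Mt2*, which bind zinc and answer to glucocorticoids and metals, rose by 1.75 and 2.16 (limma adjusted p = 0.00125 and 0.0016), with *Mt2* at 129 at 1 week and 302 at 2 weeks in controls. Clock genes rose in 8 of 19 (median 0.46, controls 0.29), or 4 without OE replicate 1 at 1 week or replicate 2 at 2 weeks, and the hour at which kidneys were taken is not stated. Among the 19, 1 differed from the control change, with the more negative change in OE. *Per1* measured 808, 1332 and 2149 normalized reads at 1 week and 2986, 5357 and 3640.0 at 2 weeks (log2 fold change 1.55, SE 0.45, limma adjusted p = 0.0187), lost without any one of OE replicate 1 at 1 week and replicate 2 at 2 weeks, while *Hlf* fell (log2 fold change -1.23, limma adjusted p = 0.00633).

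Among let-7 targets and oncofetal genes 5 of 23 tested of 25 listed rose (21.7%), 1 fell and 17 passed in neither direction (median 0.32, controls -0.06). *Hmga2*, a chromatin protein of embryonic cells repressed by let-7 (chromosome 10, 120361275 to 120476469), measured 33, 41 and 45.5 normalized reads at 1 week and 761, 266 and 204 at 2 weeks, against 16.7 at 1 week and 16.3 at 2 weeks in controls. Every 2-week library was above every 1-week library, and OE replicate 1 at 2 weeks was the highest (log2 fold change 3.10, SE 0.42, limma adjusted p = 1.43e-04). *Hmga1* measured 607, 700.0 and 921 normalized reads at 1 week and 2242, 1727 and 1905 at 2 weeks (log2 fold change 1.41, SE 0.22, limma adjusted p = 3.08e-04), and *Arid3a* rose by 0.55 on the log2 scale (limma adjusted p = 0.0228), lost without any one of OE replicate 1 at 1 week and replicate 2 at 2 weeks. *Mest*, an imprinted gene, fell (log2 fold change -1.91, limma adjusted p = 0.00372). *Igf2bp1*, *Igf2bp2* and *Igf2bp3* did not pass (log2 fold changes 0.40, 0.33 and 0.31, limma adjusted p = 0.338, 0.141 and 0.443). *Ccnd1* did not pass either (log2 fold change -0.78, limma adjusted p = 0.0552), and these genes are named after their values were seen. Among 32 genes of the cell cycle and mitosis the median was -0.56 (controls -0.32), and 0 passed with limma, 5 had an unadjusted p under 0.05, and 1 with edgeR and 5 with DESeq2 passed as lower. *Mki67*, a proliferation marker, measured 1849.6, 808 and 847 normalized reads at 1 week and 343, 265 and 594 at 2 weeks (log2 fold change -1.51, SE 0.56, limma adjusted p = 0.0552). Cytosolic ribosomal protein genes, 34 in the list, had a median of 0.16 with 0 calls by limma, edgeR or DESeq2 and 0 at an unadjusted p under 0.05. Of p53 targets and apoptosis genes 4 of 20 rose (2 without OE replicate 1 at either week or replicate 2 at 2 weeks), and *Cdkn1a*, the cell cycle inhibitor p21, did not pass (log2 fold change 0.82, limma adjusted p = 0.166).

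Nuclear and mitochondrial genes of respiration fell. Of 30 nuclear subunits of respiratory complexes I to V 29 fell (median -0.91), and 26 passed the test of the difference from controls. *Ndufs1* of complex I measured 6991, 5579 and 4635 normalized reads at 1 week and 2187, 2203 and 2508 at 2 weeks (log2 fold change -1.30, SE 0.16, limma adjusted p = 7.17e-05), and *Sdha* of complex II measured 14482, 12352 and 12242 normalized reads at 1 week and 4845, 5357 and 6469 at 2 weeks (log2 fold change -1.23, SE 0.15, limma adjusted p = 5.88e-05). Of the transcripts of the mitochondrial genome 7 of the 9 tested of 15 listed fell (median -1.21), or 4 without OE replicate 1 of either week. The 2 that passed in neither direction were the ribosomal RNAs *mt-Rnr1* and *mt-Rnr2*, named after their values were seen (log2 fold changes -0.02 and -0.14, limma adjusted p = 0.952 and 0.674). *mt-Nd2* measured 190931, 129074 and 108396 normalized reads at 1 week and 25094, 56592 and 52597 at 2 weeks (log2 fold change -1.72, SE 0.31, limma adjusted p = 9.04e-04). The other 6 listed, *mt-Co2*, *mt-Co3*, *mt-Atp6*, *mt-Atp8*, *mt-Nd3* and *mt-Nd4l*, had at most 3 reads in any group, although they belong to the abundant transcripts of kidney cells, so the deposited values do not cover the whole mitochondrial genome. The share of reads assigned to genes that fell to the mitochondrial transcripts counted ranged from 5.56 to 7.18% at 1 week and from 1.97 to 3.77% at 2 weeks, without overlap (p = 0.1 in a two-sided exact permutation test, which with 3 libraries against 3 cannot give a smaller value). In controls that share ranged from 8.91 to 9.44% at 1 week and from 10.3 to 12.7% at 2 weeks. Genes of mitochondrial translation, import and folding fell in 15 of 30 (median -0.39), or 9 without OE replicate 1 at 1 week. Among glycolysis genes 8 of 19 fell (median -0.19), and *Pfkm*, a phosphofructokinase, measured 1236, 1105 and 934 normalized reads at 1 week and 389, 443 and 561 at 2 weeks (log2 fold change -1.24, SE 0.13, limma adjusted p = 3.45e-05). *Pfkfb3*, which makes the activator of that enzyme, rose (log2 fold change 0.85, limma adjusted p = 0.0115), a call lost without OE replicate 2 at 2 weeks.

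Gluconeogenesis and fructose genes fell in 12 of 14 (median -1.43). *Slc2a2*, the basolateral glucose carrier GLUT2, measured 4425, 3127 and 2199 normalized reads at 1 week and 565, 561 and 813 at 2 weeks (log2 fold change -2.29, SE 0.24, limma adjusted p = 2.88e-05), and *Fbp1*, fructose bisphosphatase, measured 8291, 6738 and 4731 normalized reads at 1 week and 1108, 1637 and 2561 at 2 weeks (log2 fold change -1.94, SE 0.32, limma adjusted p = 4.62e-04). *Pck1*, the enzyme that commits carbon to glucose, measured 9471, 11639 and 8958 normalized reads at 1 week and 5077, 19407 and 23179 at 2 weeks, with overlap (log2 fold change 0.40, SE 0.56, limma adjusted p = 0.625), and *G6pc* also did not pass (log2 fold change -0.90, limma adjusted p = 0.17). Cholesterol and lipid synthesis genes fell in 13 of 22 (median -0.66, controls -0.22), as for *Cyp51* (log2 fold change -1.87, limma adjusted p = 3.40e-04) and *Hmgcs1* (log2 fold change -1.53, limma adjusted p = 8.05e-04), enzymes of sterol synthesis, whereas *Srebf1* rose (log2 fold change 0.54, limma adjusted p = 0.0113), lost without any one of OE replicate 1 at 1 week and replicate 2 at 2 weeks. In a list of nucleotide breakdown and creatine genes 4 of 14 tested of 15 listed rose and 5 fell (median -0.37, controls 0.12). The largest falls were those of *Gatm* (log2 fold change -3.00, limma adjusted p = 5.64e-04) and *Ckb* (log2 fold change -1.99, limma adjusted p = 2.55e-04). Among those that rose *Xdh*, xanthine dehydrogenase of purine breakdown, measured 996, 1612 and 1603 normalized reads at 1 week and 3208, 4086 and 3667 at 2 weeks (log2 fold change 1.41, SE 0.27, limma adjusted p = 0.00128). Drug metabolism genes fell in 15 of 31 (median -0.95), or 9 without OE replicate 1 of either week. *Cyp2j5*, an epoxygenase of arachidonic acid, measured 16191, 14246 and 9504 normalized reads at 1 week and 941, 1465 and 2019 at 2 weeks (log2 fold change -3.21, SE 0.43, limma adjusted p = 1.30e-04). In the renal hormone list 9 of 18 tested of 19 listed fell, including *Tmem27*, the renal amino acid transport partner collectrin (log2 fold change -2.50, limma adjusted p = 2.13e-05), and *Dio1*, a thyroid hormone deiodinase (log2 fold change -2.05, limma adjusted p = 0.00174), and *Calcr*, the calcitonin receptor, rose (log2 fold change 1.5, limma adjusted p = 0.00794).

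For some of the largest changes the control values moved in the same direction, although of the genes named here only *Serpina6* passed in controls. *Serpina6*, corticosteroid-binding globulin (chromosome 12, 103646630 to 103657212), measured 26057, 23619 and 22108 normalized reads at 1 week and 1693, 4705 and 2231 at 2 weeks in OE kidneys and 39789, 31248 and 29053 at 1 week and 1889, 403 and 871 at 2 weeks in controls. In both genotypes the weeks did not overlap, with log2 fold changes of -3.19 in OE (limma adjusted p = 1.93e-04) and -5.24 in controls (limma adjusted p = 6.34e-05). *Rdh19*, a retinol dehydrogenase family member, measured 581, 265 and 192 normalized reads at 1 week and 5.33, 9.79 and 13.8 at 2 weeks (log2 fold change -4.95, SE 0.71, limma adjusted p = 1.92e-04), and its controls were 373, 417 and 350.4 at 1 week and 105, 10 and 13.7 at 2 weeks, a log2 fold change of -3.89 (limma adjusted p = 0.142). The difference of the changes was -1.07 (limma adjusted p = 0.556). *Cyp2d9*, a male-biased cytochrome of mouse liver and kidney, measured 3.42, 21.9 and 12 normalized reads at 1 week and 172, 297 and 427 at 2 weeks (log2 fold change 4.68, SE 1.06, limma adjusted p = 0.0043), while its controls were 20.1, 5.47 and 76.7 at 1 week and 201, 1202 and 579.8 at 2 weeks, a log2 fold change of 4.57 (limma adjusted p = 0.542), and the difference of the changes was 0.11 (limma adjusted p = 0.973). *Lep*, leptin, which fat cells secrete, fell by 2.69 in OE (limma adjusted p = 0.0333, lost without any one of OE replicates 1 and 3 at 1 week and replicates 1 and 2 at 2 weeks) and changed by -3.00 in controls (limma adjusted p = 0.629). Of the 1904 DEGs 49 had a control change of the same sign with a size above 1 on the log2 scale, and 23 one of the opposite sign. *Akr1c14*, an aldo-keto reductase, was of another kind, with 94.8, 101 and 456 at 1 week and 418, 6077 and 2614 at 2 weeks in controls while it measured 42.2, 54.4 and 69.5 normalized reads at 1 week and 5.33, 17.8 and 48.6 at 2 weeks in OE kidneys, so that the difference of the changes was -5.13 (limma adjusted p = 0.0178) although the OE change did not pass (log2 fold change -1.61, limma adjusted p = 0.182).

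**Figure D4:**
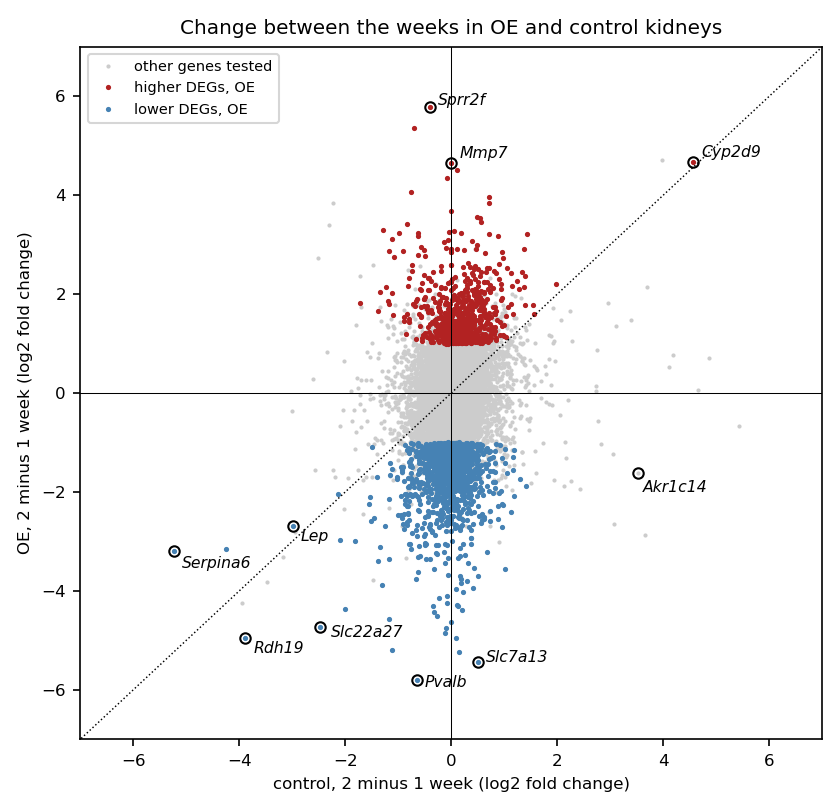
Log2 fold change from 1 to 2 weeks in control kidneys (x axis) against that in OE kidneys (y axis) for the 16984 genes tested, with higher DEGs of the OE comparison in red, lower DEGs in blue, and other genes in grey. The dotted line marks equal change. Most DEGs lie near 0 in controls, and *Cyp2d9* (4.57 in controls and 4.68 in OE), *Lep* and *Rdh19* lie near the dotted line.

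Of genes with a known male bias in mouse kidney 3 of 12 fell (25%) and 1 rose (8.33%), *Cyp2d9*, against 16.2% and 12% of all genes tested. Of female-biased genes 6 of 10 fell (60%). The male-biased *Slc7a13* and *Slc22a30* and the female-biased *Slc7a12*, which fell, also belong to the proximal tubule segment lists, which fell as well. *Kap*, the androgen-regulated kidney protein (chromosome 6, 133849851 to 133853762), measured 167400.2, 141146 and 45573 normalized reads at 1 week and 2359, 7572 and 2524 at 2 weeks (log2 fold change -4.85, SE 0.66, limma adjusted p = 1.41e-04), and its log2 change was -5.26 among libraries with *Ddx3y* below 100 and -5.09 among those above. *Slc7a13*, the aspartate and glutamate carrier of segment 3, measured 824, 807 and 596 normalized reads at 1 week and 27.5, 10.7 and 13.8 at 2 weeks (log2 fold change -5.43, SE 1.25, limma adjusted p = 0.0046), and its log2 change was -5.97 among libraries with *Ddx3y* below 100 and -4.60 among those above. Its controls were 2544, 2287 and 5426 at 1 week and 416, 16189 and 13557 at 2 weeks, with the lowest value in the only library of those 6 that had *Xist*. *Slc7a12*, a female-biased carrier, fell too, by 3.12 (limma adjusted p = 2.87e-04), so that falls occurred in both sex-biased lists. *Upp2*, uridine phosphorylase, measured 88.9, 202 and 177 normalized reads at 1 week and 171, 698 and 1050.0 at 2 weeks and passed as higher (log2 fold change 1.76, limma adjusted p = 0.0165), but its log2 change was 3.25 among libraries with *Ddx3y* below 100 and -0.14 among those above, and the call was lost without any one of OE replicate 1 at 1 week and replicates 2 and 3 at 2 weeks.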

How the data were processed

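RNA was sequenced from whole kidneys, and 12 of the 18 libraries entered the text, with all 18 in the fit of 6 groups. The deposited values are a signal that the authors made by aligning reads to mm10 with STAR, counting genes with HTSeq and dividing the counts by DESeq2 size factors (versions, strand setting and treatment of reads with several matches are not given in the sources used here). Whole reads could be recovered from 100% of the deposited values within a tolerance of 0.001. OE libraries of the 2 weeks held 21176911 to 26578917 such reads and controls 21376177 to 26891927, so a gene near the filter rests on few reads.

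Genes with a mean above 10 over the 18 libraries were tested on log2(value + 1) by limma (version 3.58.1, R 4.3.3, variance trend, 1 fit of 6 groups, 12 residual degrees of freedom), with Benjamini-Hochberg adjustment over 16984 genes. Groups came from the labels. Gene names and coordinates are from GENCODE M21, which matched 99.48% of identifiers. On simulated data the test recovered 56% of genes changed by 1 on the log2 scale, 68% at 1.5, 94% at 2 and 96% at 3, with 5 false calls. The simulation changed 50 genes at each size among 16984 and held no other difference between groups, of sex or otherwise. In the data 4798 genes passed and sex markers moved with the week, so these rates need not hold here. Alternatives were edgeR 4.0.16 and DESeq2 1.42.0 on the recovered reads, other filters, pseudocounts, scalings and variance settings, *Xist* as a covariate, libraries of one sex marker, the compared groups alone, a replicate block and leaving out each library. The choice of libraries with *Ddx3y* below 100 was added after seeing the data. Python 3.11.15, scipy 1.17.1 and matplotlib 3.10.9 served for summaries, the exact test and figures.

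The members and the 63 gene lists (1079 genes, 1078 matched) were chosen with earlier results of these data known. The genes named were *Lin28a*, *Six2*, *Xist* and *Ddx3y*, and, among DEGs whose weeks did not overlap, the 10 that rose most, the 10 that fell most and the 5 of each direction with the highest mean. The rule added the 5 genes in each direction with the largest difference from controls and, of each list, the first 2 genes, as many as 4 called members by size of change and as many as 3 called members against the direction of most. Clone-like and predicted names were skipped. This gave 323 genes, of which the text prints a part, with exceptions stated. Results on some genes and on 1 promoter element are not reported here.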

Additional observations from a re-analysis of the deposited data

Results flagged for a closer look

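The change from 1 to 2 weeks differed between OE and control kidneys in 1540 genes by the limma test of the difference itself at an adjusted p under 0.05. Those named for the size of that difference, given on the log2 scale as OE change minus control change, were *Sprr2f* (6.18), *Ifi213* (6.07), *Vgf* (4.81), *Mmp7* (4.66) and *Slfn4* (4.59) with the more positive change in OE. *Slc7a13* (-5.94), *Slc22a30* (-5.40), *Pvalb* (-5.16), *Akr1c14* (-5.13) and *Nccrp1* (-5.05) had the more negative change in OE. For *Akr1c14* neither the control change (3.52, limma adjusted p = 0.571) nor the OE change (-1.61, limma adjusted p = 0.182) passed on its own, for *Mmp7* all 6 controls had no read, and *Slc7a13* and *Slc22a30* are sex-biased genes in libraries whose sex markers were not balanced between the weeks. The part of sex in these 2 differences was not tested.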

How the results depend on the processing

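Of the alternatives computed for the named genes 5953 kept direction and side of the threshold, 414 lost the threshold, 68 gained it and 1 reversed, *Upp2*, at -0.14 on the log2 scale in libraries with *Ddx3y* above 100 only against 1.76. Of the list counts 2232 stayed within 1.5 times and 288 moved further.

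With libraries of *Ddx3y* above 100 only, the higher DEGs numbered 441 and the genes past the adjusted p alone 965 higher and 1758 lower, and control DEGs 12. With libraries below 100 only, which was chosen after seeing the data, they were 375 higher and 649 lower DEGs, and 391 and 698 by adjusted p alone. These subsets hold fewer libraries. At 2 weeks the set above 100 holds only OE replicate 1, and at 1 week the set below 100 holds only OE replicate 1. A mean filter of 50 gave 455 higher DEGs, from fewer genes tested. Control DEGs, 3 with limma, were 19 with DESeq2, 5 with *Xist* as a covariate, 5 with no filter, 1 with edgeR, 0 in a fit of the compared groups alone and 1 with the replicate block, and the cause was not tested.

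Leaving out 1 library gave 423 to 732 higher and 876 to 1349 lower DEGs, 985 to 1982 higher and 1753 to 2649 lower genes by adjusted p alone, 767 to 1693 genes differing from the control change and 1 to 24 control DEGs (24 without control replicate 1 at 2 weeks). The mitochondrial share fell by 2.48 to 3.38 percentage points, and by 3.04 with all libraries.

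Deviations of same-numbered OE libraries from their week's mean had correlations of -0.06, 0.04 and 0.0007, and those of other pairs ran from -0.13 to 0.12. With 3 libraries a week and sex markers that differ by replicate number, these values cannot show whether the numbers pair the libraries. With the replicate block the DEGs were 762 higher and 1231 lower. The median change of all genes was -0.01 as deposited, 0.03 after quantile normalization and 0.01 after upper-quartile rescaling. With 3 libraries a group and a sex balance that moved with the week, small changes and changes of sex-biased genes are the least certain, and whole-kidney RNA cannot place a change in one cell type.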
